A study of Mus musculus with 2 samples.

Results

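The let-7 family is a set of microRNAs (miRNAs), small RNAs that silence messenger RNAs by pairing with them, and is described here in the neural tube, the embryonic tissue that forms the brain and spinal cord. The 10 genes described are Mirlet7a-1, Mirlet7a-2, Mirlet7b, Mirlet7c-1, Mirlet7c-2, Mirlet7d, Mirlet7f-2, Mirlet7g, Mirlet7i and Mir98. They were chosen by gene symbol, as the let-7 genes with an entry of their own in the count tables plus Mir98, out of 1973 miRNA genes in those tables. Neural tube came from B6NCrl mouse embryos at 15.5 days, healthy and with no treatment or engineered allele named. There is 1 group with 2 biological replicates, both of them pools of mixed-sex embryos, so that a level is an average over a pool and over all cell types of the tissue. Library 1 came from 78 embryos and had 4228685 sense-strand counts in miRNA genes, and library 2 came from 62 embryos and had 6039889. With a single group, the data show the counts assigned to each member and how closely the pools matched. No comparison between conditions can be made.

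let-7 miRNAs were found as regulators of developmental timing in worms. In vertebrates they rise as cells leave the progenitor state, and they restrain growth-promoting genes such as Lin28, Hmga2, Myc and Ras. In progenitors the RNA-binding protein LIN28 holds the let-7 precursors back from processing, and let-7 in turn represses Lin28. In neural tissue, let-7a, let-7b and let-7d are known to favour the exit of mouse neural stem cells from the cell cycle, let-7b and let-7d by repressing the nuclear receptor gene Nr2e1 (Tlx) and let-7b also cyclin D1.

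The mature sequences of the 5′ arm (5p) are shown because they decide both what the family has in common and which of its reads can be assigned to 1 gene. They are RefSeq sequences on GRCm38.p6, 5′ to 3′, with the seed (bases 2 to 8) in capitals.
let-7g-5p: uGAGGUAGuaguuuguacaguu
let-7i-5p: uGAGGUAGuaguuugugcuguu
let-7b-5p: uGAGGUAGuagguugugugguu
let-7d-5p: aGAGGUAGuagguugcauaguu
let-7e-5p: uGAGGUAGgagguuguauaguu
miR-98-5p: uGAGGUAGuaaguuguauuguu
let-7f-5p: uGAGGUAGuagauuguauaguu
let-7c-5p: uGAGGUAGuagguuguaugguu
let-7a-5p: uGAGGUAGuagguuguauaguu
All 9 sequences have 22 bases and the seed GAGGUAG, so that reads per gene were not scaled by length. Whether library preparation recovered these sequences equally well was not tested, so differences between genes are differences in counts. Counted from 1 at the 5′ end and with let-7a first in each token, let-7c differs by A19G, let-7f by G12A, let-7e by U9G, and let-7b by A17G and A19G. let-7g differs by G12U and U18C, miR-98 by G11A and A19U, and let-7d by U1A and U16C. let-7i has 4 differences, G12U, A17G, U18C and A19U. Of the 36 pairs of sequences, 4 differ at a single base and the most distant pair at 6.

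Each of 6 of these sequences lies in 1 hairpin precursor, and 3 lie in 2 hairpins. let-7a is encoded by Mirlet7a-1 and Mirlet7a-2, let-7c by Mirlet7c-1 and Mirlet7c-2, and let-7f by Mirlet7f-1 and Mirlet7f-2. All 10 members had a RefSeq hairpin. For Mirlet7a-2 no separate 5p entry was used, and the let-7a sequence was found in its hairpin. Among the 10 members, 5 thus have a 5p sequence of their own (Mirlet7g, Mirlet7i, Mirlet7b, Mirlet7d and Mir98) and 5 share it with a second gene. The count tables list reads that map to several places apart from the genes, at 29.4% of all reads in library 1 and 29.7% in library 2. How many of those reads were let-7a, let-7c or let-7f was not tested, so the values of these 5 genes describe the reads assigned to 1 place, not the amount of the mature miRNA.

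The opposite, 3′ arm (3p) is shown for the genes with a shared 5p arm, since it is the other source of reads that could be told apart. Capitals mark a sequence present in 2 hairpins.
Mirlet7a-1 3p: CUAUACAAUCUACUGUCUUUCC
Mirlet7c-2 3p: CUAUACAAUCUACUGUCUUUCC
Mirlet7a-2 3p: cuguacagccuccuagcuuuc
Mirlet7c-1 3p: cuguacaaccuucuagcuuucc
Mirlet7f-1 3p: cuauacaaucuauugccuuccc
Mirlet7f-2 3p: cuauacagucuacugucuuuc
Mirlet7a-1 and Mirlet7c-2 share the 3p arm with each other, so that neither listed arm of these genes is unique to them. The other 4 have a 3p arm of their own. The hairpins of Mirlet7f-1 and Mirlet7f-2 differ at the 1st base past either end of let-7f. Those of the let-7a pair and of the let-7c pair differ 1 base before the 5′ end and 2 bases past the 3′ end, with 23 bases in common.

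Mirlet7g and Mirlet7i had by far the highest counts of the members. Mirlet7g had 42161 counts per 1000000 miRNA gene counts (CPM) in library 1 and 36961 CPM in library 2. Mirlet7i had 36231 CPM in library 1 and 35793 in library 2. In each library they stood at ranks 4 and 5 of all miRNA genes, and together they made up 80.4% ± 0.385 of the family's counts (SD, n = 2). Reads that map to several places are left out of this share, so it is not a share of the mature miRNAs. What let-7a, let-7c and let-7f reads among them would change was not tested. In bulk tissue, fewer cells of a type and less RNA per cell cannot be told apart, for these and all later levels.

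Mirlet7b followed with 6998 CPM in library 1 and 6782 in library 2. Mirlet7d had 5337 CPM in library 1 and 4831 in library 2. Mir98, which carries the let-7 seed under another name, had 3140 CPM in library 1 and 3072 in library 2. The step from Mirlet7i down to Mirlet7b was the widest between neighbours in the order, at 5.23-fold between means, against 1.06-fold to 2.84-fold for the others.

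The 5 members with a shared mature sequence all lay below those with a sequence of their own. Mirlet7f-2 had 1874 CPM in library 1 and 1937 in library 2. Mirlet7c-2 had 682 CPM in library 1 and 658 in library 2, and Mirlet7c-1 had 369 CPM in library 1 and 392 in library 2. The let-7a genes were lowest, Mirlet7a-1 with 199.6 CPM in library 1 and 197.5 in library 2, and Mirlet7a-2 with 190.8 CPM in library 1 and 182.3 in library 2. The median of mean levels was 380 CPM over these 5 genes and 6890 CPM over the 5 with a sequence of their own, and Mir98, the lowest with a sequence of its own, was 1.63-fold above Mirlet7f-2. The 5 genes with a shared sequence held 3.56% ± 0.209 of the family's counts (SD, n = 2). Since reads of a shared sequence can go uncounted, the order between the kinds of gene may not be the order of the mature miRNAs; the part of uncounted reads in it was not tested.

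Within this order every neighbouring pair kept its order in both libraries, and no ranges over the libraries overlapped. The closest pair was Mirlet7a-1 over Mirlet7a-2, with a ratio of counts of 1.05 in library 1 (95% exact counting interval 0.949 to 1.15) and 1.08 in library 2 (0.998 to 1.18), which counting error alone does not separate. Mirlet7g exceeded Mirlet7i by 1.16-fold in library 1 (1.16 to 1.17) and by 1.03-fold in library 2 (1.03 to 1.04), so the size of that gap differed between the pools. Intervals cover counting error only and take every read as independent. Reads copied from the same molecule by PCR would make them too narrow, and how many there were was not tested.

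**Figure D1:**
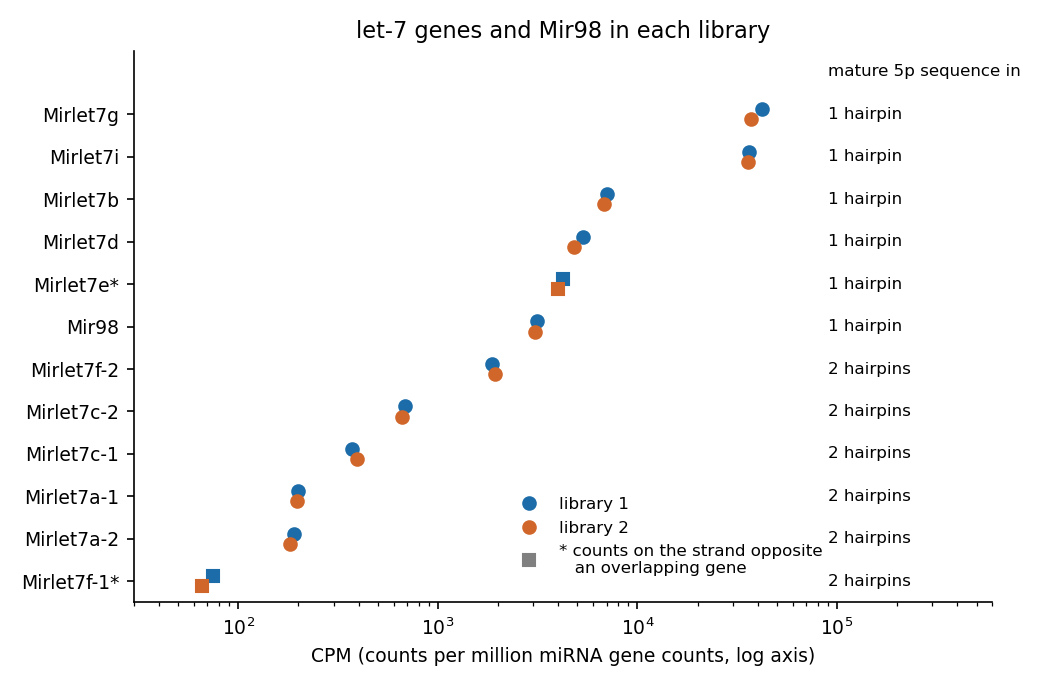
Level of each let-7 gene and Mir98 in CPM (log axis) in library 1 and library 2, with the number of hairpins that hold its mature 5p sequence. Mirlet7g and Mirlet7i lie at or above 35793 CPM in both libraries, and the members whose sequence lies in 2 hairpins lie below Mir98; squares mark counts taken from the strand opposite an overlapping gene.

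All 10 members had at least 10 counts in each library, the level used for detection, as had 363 of the 1973 genes. By mean level, 2 members were among the 10 most abundant genes, 5 among the top 50 and 6 among the top 100, and the lowest, Mirlet7a-2, stood at rank 161. The median of the members' mean levels was 2506 CPM, against 136 CPM over all detected genes. The family's share of all counts was 9.72% in library 1 and 9.08% in library 2, with 95% Wilson intervals of 9.69 to 9.75 and of 9.06 to 9.10. Reads that map to several places are in neither this share nor its total. Among the counts assigned to genes, few members carried the share. Without Mirlet7g and Mirlet7i the other 8 members held 1.88% in library 1 and 1.81% in library 2. In level over both libraries, the genes nearest to Mirlet7g were Mirlet7i, at a distance of 0.22 on the log2 CPM scale, and Mir100, at 0.70. Those nearest to Mir98, a member in the middle of the order, were Mir130b at 0.013 and Mir541 at 0.043. Over 2 libraries this is likeness of level alone.

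**Figure D2:**
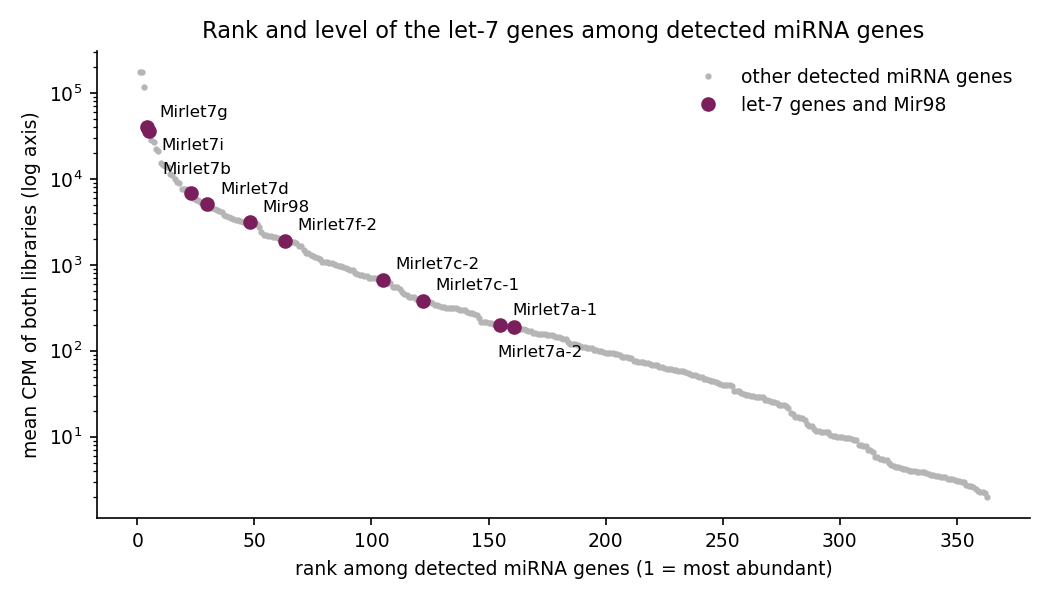
Mean CPM of both libraries (log axis) against rank for the 363 detected miRNA genes, with the 10 members marked. The members spread from rank 4 for Mirlet7g to rank 161 for Mirlet7a-2.

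let-7 genes lie alone or in clusters. Mirlet7g lies on chromosome 9 (106178840 to 106178927, GRCm38, + strand) in an intron of Wdr82, and Mirlet7i on chromosome 10 (122985640 to 122985724, - strand) in an exon of the annotated processed pseudogene D630033A02Rik. Neither has another let-7 gene beside it.

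On chromosome 15, Mirlet7c-2 (85706603 to 85706697, + strand) and Mirlet7b (85707319 to 85707403, + strand) lie in exons of the non-coding gene Lncppara, 621 bases apart. Mirlet7b had 10.3 times the counts of Mirlet7c-2 in each library. On chromosome X, Mirlet7f-2 (151912346 to 151912428, + strand) and Mir98 (151913214 to 151913321, + strand) lie in introns of Huwe1, a ubiquitin ligase gene, 785 bases apart. Mir98 had 1.68 times the counts of Mirlet7f-2 in library 1 and 1.59 times in library 2.

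On chromosome 13, Mirlet7a-1 (48538179 to 48538272, - strand), Mirlet7f-1 and Mirlet7d (48536012 to 48536114, - strand) overlap exons of the long non-coding gene 6720427I07Rik. Mirlet7d had 26.7 times the counts of Mirlet7a-1 in library 1 and 24.5 times in library 2. In each of these clusters the gene with a mature sequence of its own had the higher count. The part of uncounted reads of the shared sequences in this was not tested.

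The remaining clusters join let-7 to the Mir99 and Mir100 family and to Mir125, the vertebrate kin of the worm timing gene lin-4. On chromosome 9, Mirlet7a-2 (41536716 to 41536811, + strand) lies 5211 bases after Mir100 and 45114 bases before Mir125b-1, in an intron of the non-coding genes 3110039I08Rik and Gm49317. Mir100 had 27565 CPM in library 1 and 29067 in library 2, which was 144.4 and 159.5 times the counts of Mirlet7a-2. On chromosome 16, Mirlet7c-1 (77599657 to 77599750, + strand) lies 656 bases after Mir99a and 46522 bases before Mir125b-2, within an intron of Mir99ahg, a non-coding gene. Mir99a had 309 times the counts of Mirlet7c-1 in library 1 and 309 times in library 2. Reads of let-7a and let-7c that map to several places can go uncounted in these ratios, and how many did was not tested.

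The Mir125b genes of these clusters were closer in count to their let-7 neighbours. Mir125b-1 had 4.75 times the counts of Mirlet7a-2 in library 1 and 5.70 times in library 2. Mir125b-2 had 3.35 times the counts of Mirlet7c-1 in library 1 and 3.81 times in library 2. How many reads of the Mir125b genes map to both copies was not tested.

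The third such cluster, on chromosome 17, holds Mirlet7e between Mir99b and Mir125a, and its let-7 gene has no entry of its own in the tables. Mirlet7e (17830352 to 17830444, + strand) lies inside Gm25927, a miRNA gene annotated on the other strand at 17830343 to 17830459. Gm25927 had 0 counts on its own strand in both libraries and 17881 counts in library 1 and 24172 counts in library 2 on the strand of Mirlet7e. Read as Mirlet7e, these correspond to 4229 CPM in library 1 and 4002 in library 2, between Mirlet7d and Mir98. Mir99b had 3.21 times as many counts in library 1 and 3.83 times in library 2, and Mir125a 0.954 and 1.07 times as many.

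Mirlet7f-1 (48537829 to 48537917, - strand) likewise lies inside Gm24111, annotated on the + strand at 48537825 to 48537921. Gm24111 had 0 and 1 counts on its own strand, and on that of Mirlet7f-1 it had 316 counts in library 1 and 397 counts in library 2, or 74.7 CPM and 65.7 CPM. That is below all 10 members, and far below Mirlet7f-2 with the same mature sequence. Reads of let-7f that map to both places can be missing from both counts, and how many were was not tested. Strand was kept apart well at the members themselves, 9 of which had 0 counts on the opposite strand in both libraries. Mirlet7b was the exception, having 8 such counts in library 1 and 12 in library 2. With both sets of counts added, the family held 9.78% of the counts as a mean of the libraries.

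**Figure D3:**
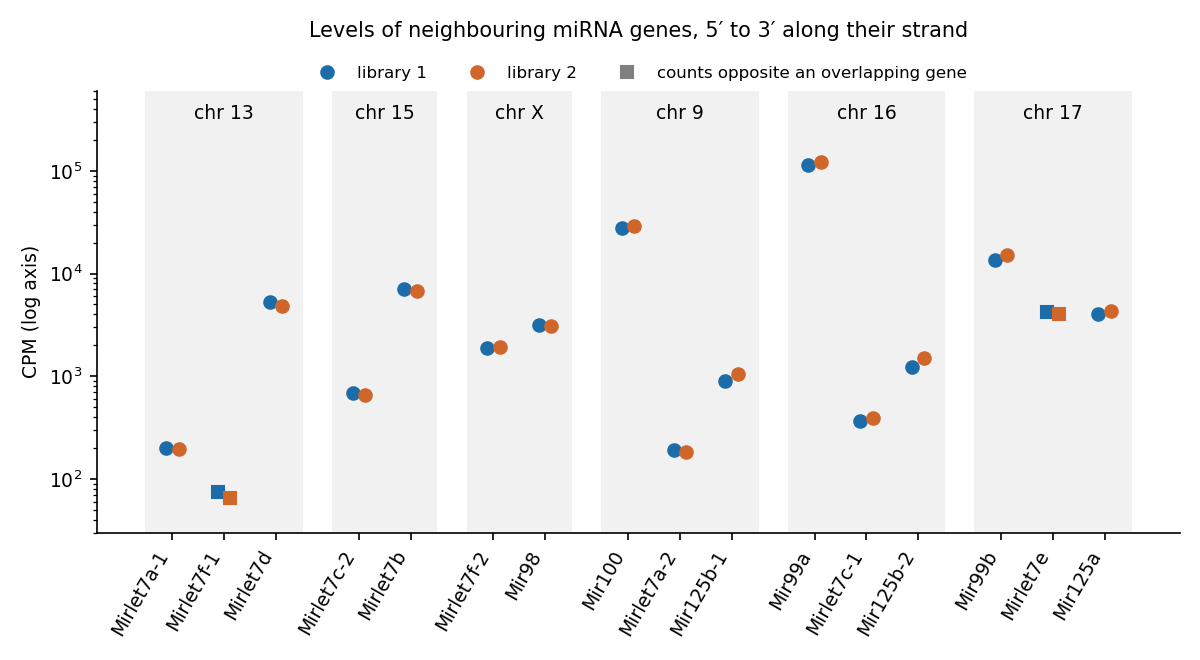
CPM (log axis) in library 1 and library 2 of miRNA genes that lie beside each other, in 5′ to 3′ order along their strand and grouped by chromosome. Mirlet7a-2 and Mirlet7c-1 lie below both of their neighbours, whereas Mirlet7e, from counts opposite Gm25927, lies at the level of Mir125a. The 5p sequences of Mirlet7a-2 and Mirlet7c-1 lie in 2 hairpins each and that of Mirlet7e in 1. The part of uncounted reads in this contrast was not tested.

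LIN28 is known to bind let-7 precursors through the tetranucleotide GGAG in their loop region. Hairpins are shown for the members with the highest counts and for the highest-counted members without GGAG. They are RefSeq hairpins on GRCm38.p6, 5′ to 3′, with GGAG in capitals.
Mirlet7g: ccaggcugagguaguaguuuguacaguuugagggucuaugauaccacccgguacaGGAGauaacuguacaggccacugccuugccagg
Mirlet7i: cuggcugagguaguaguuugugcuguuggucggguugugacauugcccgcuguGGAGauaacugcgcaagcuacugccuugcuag
Mirlet7b: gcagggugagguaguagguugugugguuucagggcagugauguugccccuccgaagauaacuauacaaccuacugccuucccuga
Mir98: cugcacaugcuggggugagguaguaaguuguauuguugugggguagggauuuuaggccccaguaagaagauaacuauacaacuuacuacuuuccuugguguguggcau
Searched on the RNA strand only, GGAG occurred between the arms in 7 of 10 member hairpins, and in those of Mirlet7e and Mirlet7f-1. Mirlet7c-1 held 2 matches, the other of which lay past the 3p arm. The match between the arms ended 3 bases before the 3p arm in Mirlet7g and 4 bases before it in the other 6 members. Of all 288 RefSeq mouse hairpins of 83 to 108 bases, the range of these genes, 44.8% held GGAG somewhere. The members without it were Mirlet7b, Mir98 and Mirlet7c-2, with mean levels of 6890, 3106 and 670 CPM. Those with it ran from 39561 CPM for Mirlet7g to 187 CPM for Mirlet7a-2, so the levels of both kinds overlapped. A match or its lack in these letters is a description and shows nothing about LIN28 in this tissue.

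Most let-7 members differed little between the pools, but Mirlet7g, the member with the highest counts, differed most. The SD over the libraries was 2.42% of the mean for the median member, from 0.737% for Mirlet7a-1 to 9.29% for Mirlet7g. Over all 363 detected genes the median was 9.32%, and over the 186 other genes of at least 100 CPM it was 6.89%, which Mirlet7g exceeded. The largest difference among the members was 1.11-fold, that of Mirlet7g, against 35.3-fold among those 186 genes. These figures are a description, with no test of the members against other genes. The sets were not matched in level, with a median of 2506 CPM over the members and 136 CPM over all detected genes. Counting error is larger relative to the mean at lower counts, and its part in these figures was not tested.

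An exact binomial test, two-sided, with library sizes scaled by TMM factors and Benjamini-Hochberg adjustment over all 363 genes, called 5 of the 10 members. The same test called 49.9% of all detected genes, so the count of members called lies at the background. The test sets 1 library against the other, says nothing of conditions, and allows for counting error only. Ratios are of library 1 to library 2.

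Mirlet7g and Mirlet7d were higher in library 1, where 25.6% of all genes were called higher. For Mirlet7g the ratio was 1.11 (95% exact counting interval 1.11 to 1.12; exact binomial test, adjusted p = 6.56e-252). For Mirlet7d it was 1.08 (1.06 to 1.10; exact binomial test, adjusted p = 4.93e-17). Mirlet7g and Mirlet7d had 178285 and 22568 counts in library 1, so their counting intervals are narrow. Mirlet7b, with 29592 counts in library 1, did not pass the test.

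Mirlet7f-2, Mirlet7c-1 and Mirlet7i were lower in library 1, where 24.2% of all genes were called lower. The ratio was 0.945 for Mirlet7f-2 (0.918 to 0.972; exact binomial test, adjusted p = 0.000292), 0.922 for Mirlet7c-1 (0.864 to 0.983; adjusted p = 0.0269) and 0.989 for Mirlet7i (0.982 to 0.995; adjusted p = 0.00197). With library sizes alone, Mirlet7i had the opposite direction, Mirlet7c-1 did not pass the test, and Mirlet7b did, so that 4 members were called higher and 1 lower in place of 2 and 3.

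Mirlet7b, Mir98, Mirlet7c-2, Mirlet7a-1 and Mirlet7a-2 did not pass the test, with ratios from 0.987 for Mirlet7a-1 to 1.02 for Mirlet7a-2. By the exact test of edgeR, in which the variation between pools is included, 0 of 10 members were called, against 2.2% of all genes, and 0 members had an unadjusted p under 0.05, against 14 of 363 genes. That spread, a coefficient of variation of 34.3%, was estimated as 1 value over all 363 genes from the same libraries. With 1 library on each side, differences as small as those of the members could hardly be called against it. The smallest unadjusted p of the members by edgeR's exact test was 0.826. The lack of calls is therefore no evidence that the members matched. The summed family had a ratio of 1.05 (95% exact counting interval 1.04 to 1.05), and of 1.02 (1.01 to 1.03) without Mirlet7g and Mirlet7i.

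The 6 genes clustered with a let-7 gene were all called lower in library 1, from a ratio of 0.926 for Mir100 (0.920 to 0.933) to 0.809 for Mir125b-2 (0.782 to 0.837), where 24.2% of all detected genes were called lower. By edgeR's exact test 0 of these 6 were called (adjusted p = 1 for each), and 0 had an unadjusted p under 0.05. At the same loci, Mirlet7c-1 stood at 0.922 (0.864 to 0.983) and its neighbour Mir99a at 0.922 (0.919 to 0.925). Mirlet7a-2 stood at 1.02 (0.933 to 1.12), beside 0.926 for Mir100 and 0.852 for Mir125b-1 (0.818 to 0.887). Mirlet7e, read from the strand opposite Gm25927, stood at 1.03 (1.01 to 1.05), beside 0.865 for Mir99b (0.856 to 0.874) and 0.920 for Mir125a (0.902 to 0.938). Differences between neighbours in these ratios were not tested against the spread between pools. For the clustered genes too, edgeR's exact test could hardly call differences of this size.

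**Figure D4:**
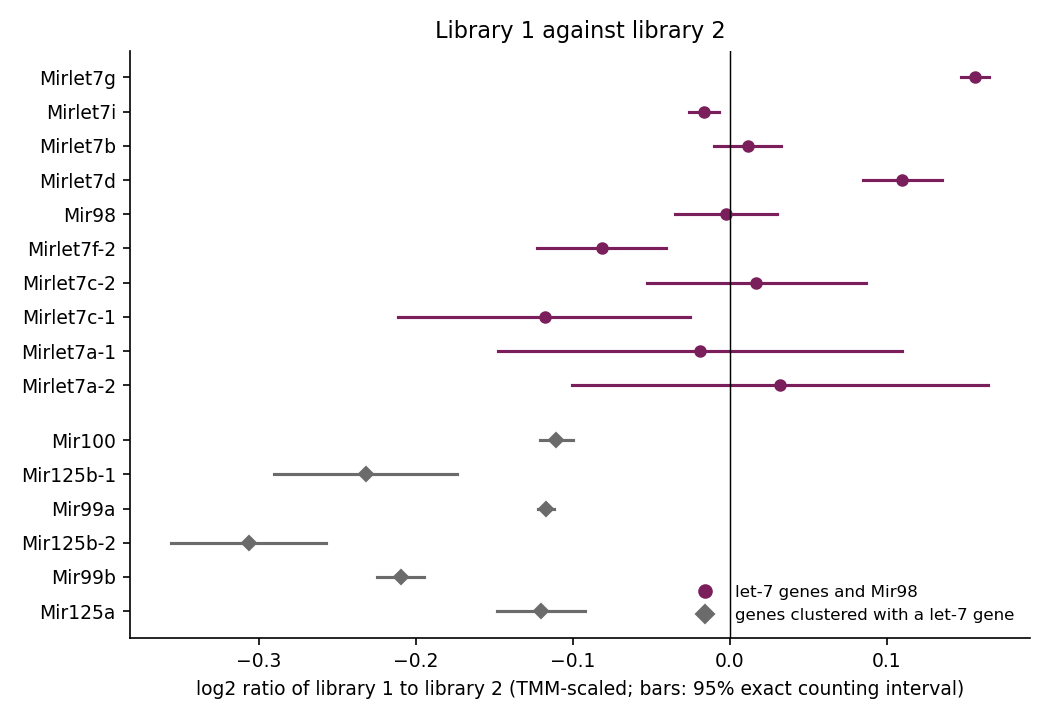
Log2 ratio of library 1 to library 2, with 95% exact counting intervals, for the 10 members and the 6 genes clustered with a let-7 gene. The members lie between -0.12 and 0.16, whereas the clustered genes all lie below 0.

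The libraries also differed in miRNAs of other tissues. Of 13 listed neural miRNA genes, 12 had an entry and 8 were detected, with a sum of 13607 CPM in library 1 and 14768 in library 2. Mir137 led them, while the 3 copies of Mir124a had 2 to 17 counts. Those copies are known to encode the same mature miRNA, and how many of its reads map to several places was not tested, so these counts give no level of miR-124. The lists hold further genes named as copies, such as Mir9-2 and Mir9-3, for which this was not tested either. All sums over the lists are therefore sums of assigned counts. The 7 epithelial genes summed to 5458 CPM in library 1 and 631 in library 2, and the 7 genes of mesenchyme and smooth muscle, 6 of them detected, to 22420 CPM in library 1 and 7594 in library 2. In the mesenchyme list Mir143 alone had 17950 CPM in library 1 and 3951 in library 2, and the other 6 genes summed to 4471 CPM in library 1 and 3643 in library 2. Without Mir429, the epithelial gene that differed most, the other 6 epithelial genes summed to 3677 CPM in library 1 and 572 in library 2. Endothelial Mir126a had 22011 CPM in library 1 and 19666 in library 2, the 3 erythroid genes 202 and 183 CPM, and liver Mir122 66.0 and 56.3 CPM. let-7 is made in most tissues, and the part of these cell types in the small differences of Mirlet7g and Mirlet7d was not tested.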

How the data were processed

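miRNA sequencing of total RNA, restricted to fragments under 30 bases per the labels, was deposited as 1 table per library of raw read counts per miRNA gene. The deposited README files name build mm10 and GENCODE annotation M4. Which aligner, counter and trimming were used is not given in the sources used here. The 4 leading entries without a gene held 45.7% of 7925935 reads in library 1 and 47.7% of 11738914 in library 2, and entered neither library sizes nor tests. The deposited counts come without regard to strand and for each strand; the strand with the larger total (98.2% and 98.4% of stranded counts) was used as sense. CPM is a gene's sense count over the library's sum, and a count of 0 allows up to 0.709 and 0.497 CPM (3 counts).

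Symbols, positions and host genes came from GENCODE M21 (1894 of 1973 identifiers matched, the version dropped), sequences from RefSeq (GRCm38.p6). Mirlet7a-1, Mirlet7c-1 and Mirlet7i carry a later version in M21. Library sizes were scaled with TMM over genes of at least 10 counts in each library (edgeR 4.0.16, R 4.3.3). Each of these 363 genes was compared by an exact binomial test with Benjamini-Hochberg adjustment at 0.05. The test was also run on simulated counts that held counting error only, so that run says nothing about variation between pools. edgeR's quasi-likelihood test needs groups with replicates, and setting library 1 against library 2 leaves none. Alternatives were library sizes alone, DESeq2 1.42.0 size factors, counts from both strands, no filter, library 2 thinned, edgeR's exact test and either library alone. Python 3.11.15, pandas 2.3.3, numpy 2.4.6, scipy 1.17.1 and matplotlib 3.10.9 were used. Named genes are all members, genes sharing a cluster with a let-7 gene, and the 2 genes nearest in level to the leading and to a middle member. The members and lists were chosen with earlier results of these data known.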

Additional observations from a re-analysis of the deposited data

Results flagged for a closer look

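Counts were found outside the sense-strand measurement, above the 3 counts that a count of 0 allows. On the strand opposite Gm25927, which is that of Mirlet7e, there were 17881 counts in library 1 and 24172 in library 2. They made up 23.0% of all opposite-strand counts of library 1 and 24.6% of those of library 2. On the strand opposite Gm24111, which is that of Mirlet7f-1, there were 316 counts in library 1 and 397 in library 2. On the strand opposite Mirlet7b there were 8 counts in library 1 and 12 in library 2.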

How the results depend on the processing

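The family's share of 9.40% ranged from 9.08 to 9.72% with either library left out, and was 9.24% with counts from both strands, 9.40% with TMM-scaled sizes, 9.78% with the counts opposite Gm25927 and Gm24111, and 9.07% from members with a mature sequence of their own. Its log2 ratio of library 1 to library 2 was 0.064, and 0.098, 0.068 and 0.059 with library sizes alone, DESeq2 size factors and counts from both strands. The number of members that differed was 5 under all scalings and without a filter, 4 with library 2 thinned and 0 by edgeR's exact test. The log2 ratio changed sign for Mirlet7a-1 (0.015), Mirlet7i (0.018) and Mir98 (0.031) with library sizes alone, for Mir98 with DESeq2 size factors (0.0013) and thinned counts (0.010), and for Mirlet7b (-0.020) and Mirlet7c-2 (-0.015) without a filter. By construction, library sizes alone and DESeq2 size factors add 0.0338 and 0.0036 to every member's log2 ratio and leaving out the filter adds -0.0318, which turns the sign of ratios near 0; thinning, a random draw, moved the members by -0.0188 to 0.0128. Of the members that changed sign, only Mirlet7i had passed the main test. No ratio can be formed with a library left out. No paired analysis was possible because there is 1 group.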

Other observations

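RefSeq lists other mouse mature miRNAs with the let-7 seed or name, searched for after the counts had been seen. miR-1961 and let-7k carry the same seed, and their genes Mir1961 and Mir7k had 0 and 0 counts in library 1 and 0 and 1 counts in library 2. let-7j, shown beside let-7i with bases 2 to 8 in capitals, does not carry it.
let-7j: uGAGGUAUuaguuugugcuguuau
let-7i: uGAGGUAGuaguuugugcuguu
Over the 22 bases of let-7i the only difference is G8U, with let-7i first and positions counted from the 5′ end, which lies inside the seed. Its gene Mir7j had 227 counts in library 1 and 370 counts in library 2, or 53.7 CPM and 61.3 CPM. The ratio of library 1 to library 2 was 0.856 (95% exact counting interval 0.722 to 1.01), and Mir7j did not pass the exact binomial test (adjusted p = 0.121). Mirlet7i, at 36231 and 35793 CPM, stood far above it, and whether reads of let-7i with a changed base enter the count of Mir7j was not tested.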
